A study of Mus musculus with 10 samples.

Results

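The genes of the mitochondrial ribosomal proteins were examined in mouse liver after napabucasin. They were taken from the count table as every protein-coding gene whose symbol begins with Mrpl or Mrps followed by a digit. This gave 78 genes of the 54532 in the table, 49 with a large subunit symbol (Mrpl) and 29 with a small subunit symbol (Mrps). Of these, 77 had enough reads to be tested, 48 Mrpl and 29 Mrps, among 14244 genes tested in all.

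The data are RNA sequencing of whole liver from 10 mice. The vehicle group of 5 received 1% sodium carboxymethyl cellulose (NaCMC) and the napabucasin group of 5 received napabucasin at 20 mg per kg body weight, both by daily gavage for 7 days. Napabucasin, also called BBI608, is a quinone compound studied as a blocker of STAT3 signalling. The sources used here give no strain, age or sex, the labels call the libraries biological replicates, and no group carries a genetic change in the labels.

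The mitochondrial ribosome translates the few proteins encoded by mitochondrial DNA, all of them subunits of the respiratory chain and ATP synthase. Its RNA comes from the mitochondrial genome, while all of its proteins are encoded in the nucleus, made in the cytosol and imported. Some of these proteins descend from bacterial ribosomal proteins and others exist only in mitochondrial ribosomes. Liver is rich in mitochondria, and NRF1, the ETS family factor GABP and YY1 are known regulators of many nuclear genes for mitochondrial proteins.

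As a group the genes lay slightly lower in napabucasin livers, and no member passed the threshold. In edgeR's quasi-likelihood fit on all genes, 44 of 48 Mrpl genes (91.7%) and 23 of 29 Mrps genes (79.3%) had a log2 fold change below 0, against 49.9% of all genes tested. The median log2 fold change was -0.21 for Mrpl and -0.12 for Mrps, against 0.00098 for all genes and -0.014 for 7367 other genes in the members' range of mean log2 CPM (CPM is the count scaled to the library's size). The middle 50% of values lay between -0.35 and -0.088 for Mrpl and between -0.33 and -0.057 for Mrps.

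The count of members past an adjusted p of 0.05 was 0 of 77, and the smallest adjusted p was 0.227. That test called 0% of all genes. At an unadjusted p under 0.05, 8 Mrpl and 3 Mrps genes were lower (16.7% and 10.3%), against 5.83% of all genes, and 1 Mrpl and 0 Mrps genes were higher, against 9.34%. DESeq2, which called 1.7% of all genes at an adjusted p under 0.05, called 0 members. Limma-voom with quality weights called 1.1% of all genes and 1 member, Mrpl12. With the replicate number as a block, edgeR called 0 members at an adjusted p under 0.05, and 7 Mrpl and 7 Mrps genes were lower at an unadjusted p under 0.05, against 8.81% of all genes.

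**Figure D1:**
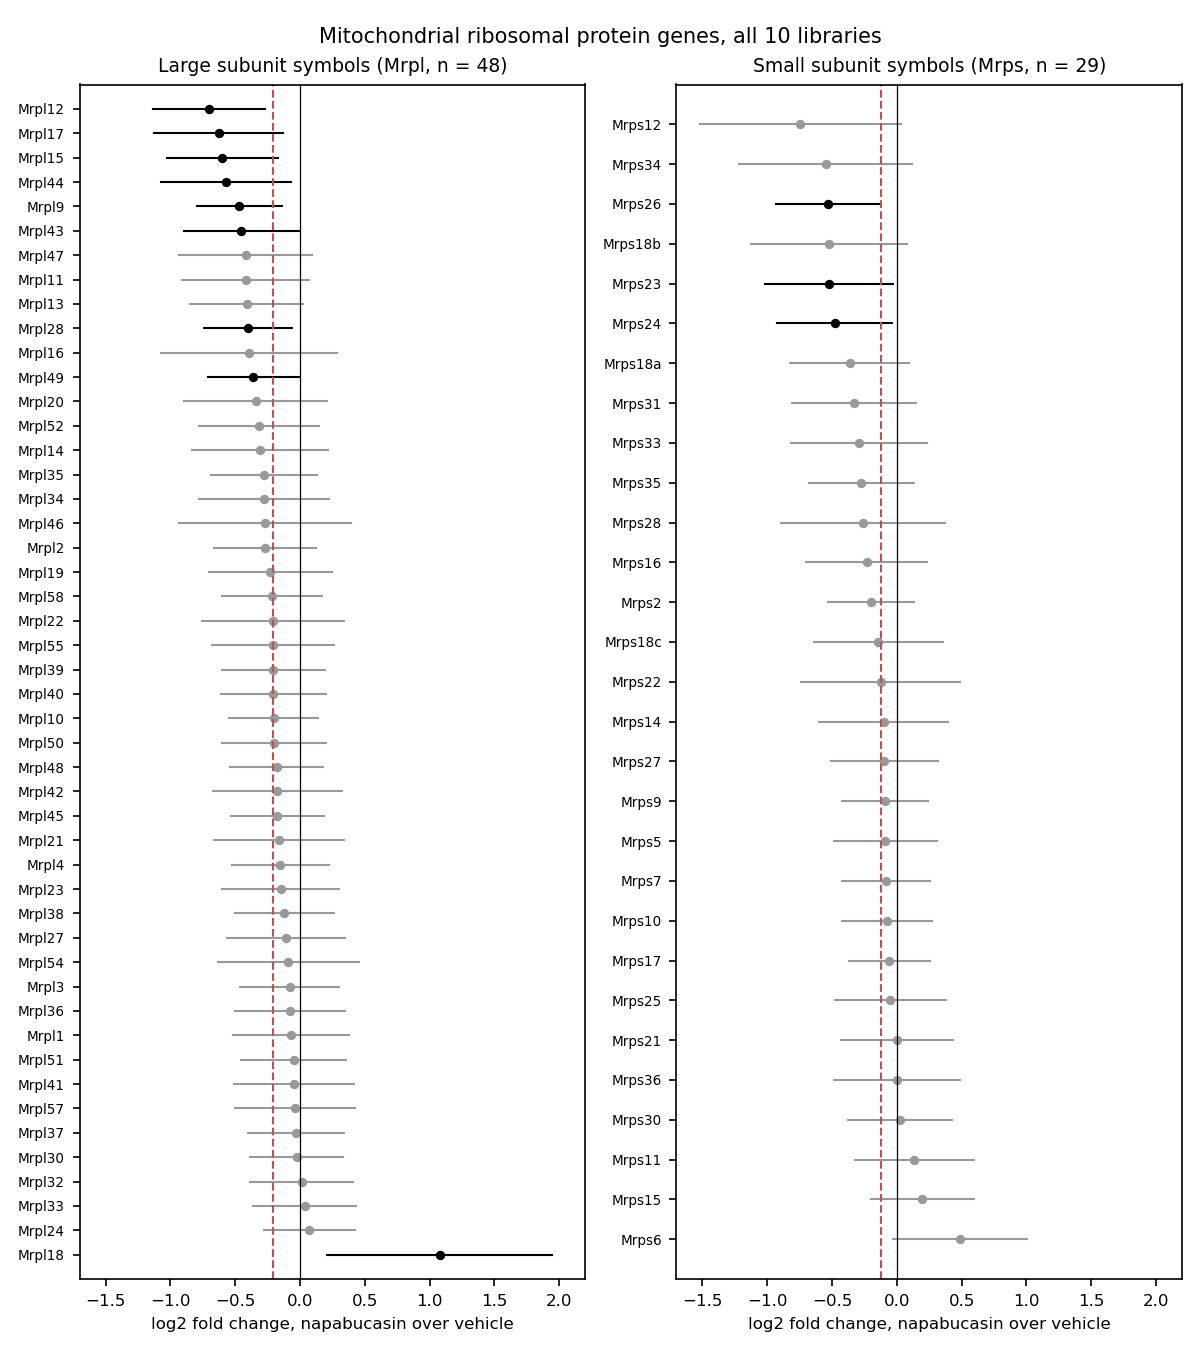
Log2 fold change of each tested member, napabucasin over vehicle, with its 95% confidence interval (n = 5 per group). The left panel holds 48 Mrpl genes and the right panel 29 Mrps genes, black marks an unadjusted p under 0.05 and the dashed line is the panel's median. Most points lie left of 0, most intervals cross it, and Mrpl18 lies apart on the right.

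Within this small shift, 2 of the 10 libraries stood lowest. A score was computed per library as the mean of centred log2 CPM over the 77 tested members. In vehicle replicates 1 to 5 it was 0.284, -0.039, 0.235, 0.032 and 0.035. In napabucasin replicates 1 to 5 it was -0.560, -0.245, 0.108, 0.070 and 0.080. Napabucasin replicates 1 and 2 lay below every vehicle library, and replicates 3, 4 and 5 lay inside the vehicle range.

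Napabucasin replicate 1 was the lowest of all 10 libraries for 55 of 77 members, and vehicle replicate 1 was the highest for 39. The CPM of 61 members in napabucasin replicate 1 and of 39 in replicate 2 lay below every vehicle value, against 12, 10 and 13 in replicates 3, 4 and 5. For 54 of 77 members, replicates 3, 4 and 5 all lay within the vehicle range. The same counts were not made over all genes, so the members' counts cannot be read as particular to them. The weight that limma-voom gave each library from all genes was lowest for napabucasin replicate 1 (0.307), against 0.534 to 2.84 in the others. Without napabucasin replicates 1 and 2, a choice made after the data were seen, the median log2 fold change was -0.010 for Mrpl and -0.0082 for Mrps. Then 27 of 48 Mrpl and 15 of 29 Mrps genes lay below 0, against 53.6% of all genes. Leaving out the 2 lowest treated libraries moves the medians up by construction. No matching fit without the 2 highest vehicle libraries was run.

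The 2 libraries also differed in RNA classes. Genes with an rRNA biotype took 1.09% of counts in each of napabucasin replicates 1 and 2, 0.912% in vehicle replicate 2 and 0.195% to 0.455% in the other 7 libraries. In every library most of this share was mitochondrial rRNA, the kind found in the mitochondrial ribosome itself. It took 0.917%, 0.908% and 0.823% of counts in napabucasin replicates 1 and 2 and vehicle replicate 2, and other rRNA took 0.178%, 0.180% and 0.0892%. Mitochondrially encoded genes took 19.9% in napabucasin replicate 1, 15.3% in replicate 2, 19.0% in vehicle replicate 1 and 7.03% to 11.4% in the rest. The difference between group means of each share did not pass 0.05 in a two-sided exact permutation test (p = 0.19 for rRNA and 0.278 for mitochondrial genes, n = 5 per group, where 252 assignments allow a smallest p of 0.00794). Between libraries of equal replicate number, the mitochondrial share was higher after napabucasin in 5 of 5 pairs and the rRNA share in 4 of 5. An exact two-sided sign-flip test over the 5 pairs, added after the data were seen, gave p = 0.0625 for the mitochondrial share, the smallest it allows, and 0.125 for rRNA. With the rRNA share as a covariate the medians were -0.050 for Mrpl and -0.044 for Mrps, and without the 3 libraries of highest rRNA share they were -0.045 and -0.025. What part RNA quality had in the shift was not tested.

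**Figure D2:**
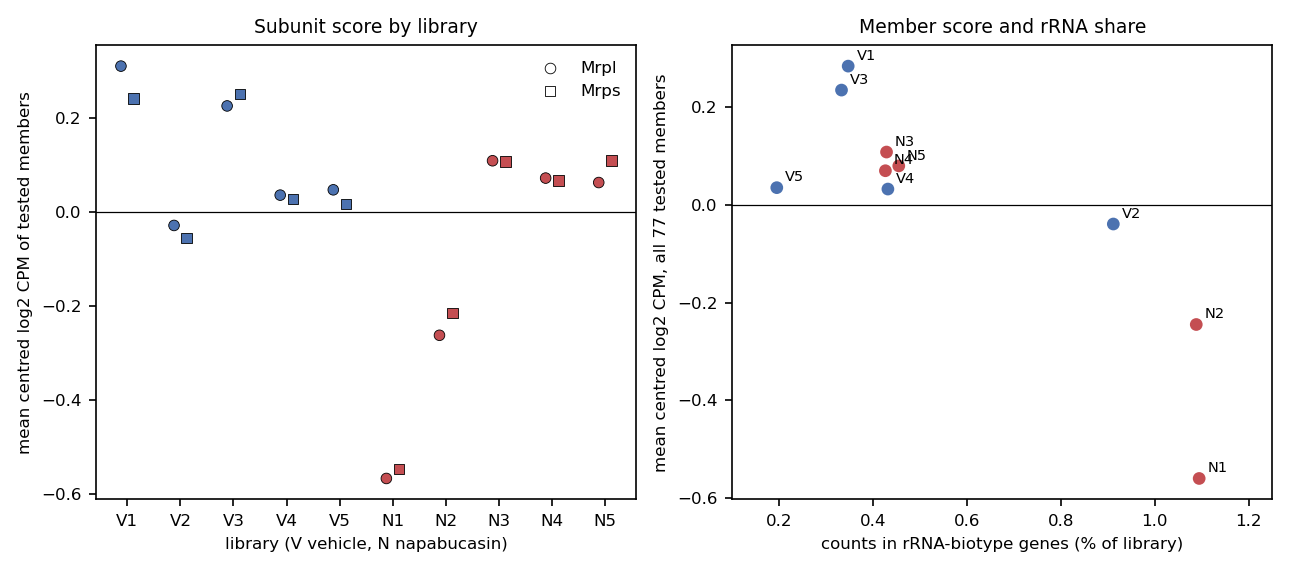
Left, the mean centred log2 CPM of tested Mrpl (circles) and Mrps (squares) genes in each library, with vehicle in blue and napabucasin in red. Right, the same score over all 77 members against the percent of counts in rRNA-biotype genes, most of it mitochondrial rRNA. Napabucasin replicates 1 and 2 hold the 2 lowest scores and the 2 highest rRNA shares, and the other 3 napabucasin libraries lie among the vehicle libraries.

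The cells of the liver bear on these values, since fewer cells of a type and less RNA per cell cannot be told apart in whole tissue. All 7 hepatocyte markers had a log2 fold change below 0 (median -0.29), with a summed level of 50912 to 154646 CPM with vehicle and 73862 to 128459 CPM after napabucasin. All 7 T cell markers were above 0 (median 1.35), with sums of 9.48 to 13.7 and 20.1 to 36.8 CPM, as were all 5 B cell markers (median 1.26), with sums of 26.6 to 46.3 and 55.5 to 91.3 CPM. Medians for 6 Kupffer cell, 6 sinusoidal endothelial and 6 stellate and fibroblast markers, each set entirely above 0, were 0.66, 0.64 and 0.76. Their sums ran from 232 to 1240 and 460 to 1772 CPM for Kupffer cells, from 56.3 to 171 and 141 to 219 CPM for endothelium, and from 242 to 319 and 259 to 739 CPM for stellate cells. The part of these cells in the members' values was not tested.

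Markers of the bile ducts and of blood were also present. Cholangiocyte markers were above 0 for 2 of 5, with sums of 214 to 477 CPM with vehicle and 266 to 445 CPM after napabucasin, and erythroid markers for 4 of 4 tested, with sums of 14.8 to 191 and 18.4 to 163 CPM. Skeletal muscle markers summed to at most 4.73 CPM and adipose markers to at most 0.205 CPM in any library, and none of these was tested. Pancreas markers summed to at most 14.7 CPM, with Amy2a5, a pancreatic amylase, at 0 counts in every library, as was Lep, the adipose hormone leptin.

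Among large subunit proteins with a bacterial counterpart, 26 of 30 genes lay below 0, with a median log2 fold change of -0.22. Mrpl12 encodes the stalk protein that receives translation factors and is also known to bind the mitochondrial RNA polymerase. It is on chromosome 11 (120484613 to 120489065, plus strand, GRCm38) and shares 13% of its exonic bases with Gm16755 on the other strand. Its vehicle levels were 45.4, 49.9, 69.5, 65.4 and 77.6 CPM, and its napabucasin levels 34.3, 28.1, 41.4, 50.6 and 34.7 CPM. Only napabucasin replicate 4, at 50.6 CPM, reached into the vehicle range, and the 2 lowest vehicle values were replicates 1 and 2. The log2 fold change was -0.70 (SE 0.20, 95% confidence interval -1.14 to -0.27, edgeR adjusted p = 0.227). Limma-voom gave -0.77 with an adjusted p of 0.0472, and the adjusted p over all 27 alternatives ran from 0.0472 to 0.786.

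Mrpl9, Mrpl15, Mrpl17 and Mrpl28 each had every napabucasin value below every vehicle value. Across all genes this order of the groups held for 0.934%, and the reverse order for 1.21%. Among members it held for 4 of 48 Mrpl and 1 of 29 Mrps genes, and the reverse order for none of the 77.

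Mrpl9, a protein of the large subunit with a counterpart in bacteria (chromosome 3, 94443318 to 94451130, plus strand), measured 27.8, 34.2, 31.8, 35.0 and 35.0 CPM with vehicle and 22.3, 19.2, 23.2, 26.7 and 26.9 CPM after napabucasin. Its lowest vehicle value, 27.8 CPM, stood close to its 2 highest napabucasin values. The log2 fold change was -0.47 (SE 0.15, edgeR adjusted p = 0.246), and -0.36 without napabucasin replicates 1 and 2.

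Mrpl15 (chromosome 1, 4773206 to 4785739, minus strand) measured 56.9, 47.7, 63.4, 55.3 and 56.0 CPM with vehicle and 20.6, 37.4, 41.9, 42.9 and 41.5 CPM after napabucasin. Napabucasin replicate 1 was far below the other 4, which lay within 6 CPM of one another. Its log2 fold change was -0.60 (SE 0.20, edgeR adjusted p = 0.248), and -0.41 without replicates 1 and 2 of that group.

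Mrpl17 (chromosome 7, 105803206 to 105811099, minus strand) measured 56.9, 54.4, 65.3, 51.3 and 57.1 CPM with vehicle and 19.0, 28.7, 42.3, 51.1 and 43.2 CPM after napabucasin. The napabucasin values were spread widely, and replicate 4 at 51.1 CPM all but met the lowest vehicle value of 51.3 CPM. Its log2 fold change was -0.63 (SE 0.23, edgeR adjusted p = 0.276). Mrpl28 (chromosome 17, 26123520 to 26126613, plus strand) measured 32.5, 35.9, 45.1, 37.0 and 36.3 CPM with vehicle and 22.0, 27.0, 32.3, 30.9 and 29.2 CPM after napabucasin, with 2 values, 32.5 and 32.3 CPM, nearly meeting between the groups. On the log2 scale the change was -0.40 (SE 0.16, edgeR adjusted p = 0.288).

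The bases just before the RefSeq start sites of 4 of these 5 genes are shown because letters read by NRF1, a regulator of nuclear genes for mitochondrial proteins, lie there in 3 of them. For Mrpl15 no promoter was matched. The 5 genes were named for small p, and 3 of 4 is no rate for the members. In a wider window around the start these letters occurred for 23.2% of 69 members and 14.4% of tested genes. Capitals mark GCGCANGCG, on either strand, and no capitals means that neither these letters nor those given below for ETS factors or YY1 occur in the stretch. Sequences are from RefSeq (GRCm38.p6), written 5′ to 3′ on the strand of the gene and ending at the base before its start site.
Mrpl12, chr11:120484487-120484636, plus strand: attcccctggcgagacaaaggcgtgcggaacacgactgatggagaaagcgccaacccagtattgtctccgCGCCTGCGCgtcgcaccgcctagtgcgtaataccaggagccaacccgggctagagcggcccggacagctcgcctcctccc
Mrpl9, chr3:94443186-94443335, plus strand: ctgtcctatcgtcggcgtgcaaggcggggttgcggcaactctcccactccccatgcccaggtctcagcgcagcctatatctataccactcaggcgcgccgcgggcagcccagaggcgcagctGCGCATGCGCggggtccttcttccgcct
Mrpl17, chr7:105811088-105811237, minus strand: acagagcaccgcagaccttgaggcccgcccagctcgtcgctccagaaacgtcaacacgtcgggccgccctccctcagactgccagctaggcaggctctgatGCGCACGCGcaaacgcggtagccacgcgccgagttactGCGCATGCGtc
Mrpl28, chr17:26123353-26123502, plus strand: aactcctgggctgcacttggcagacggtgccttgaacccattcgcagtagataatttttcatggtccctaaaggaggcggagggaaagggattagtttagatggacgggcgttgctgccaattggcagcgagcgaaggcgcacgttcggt
In Mrpl9 the letters form a palindrome, so both strands match at positions shifted by 1 base. In Mrpl17 they occur at 2 places, 49 and 11 bases before the start, and in Mrpl12 at 80 bases before it.

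**Figure D3:**
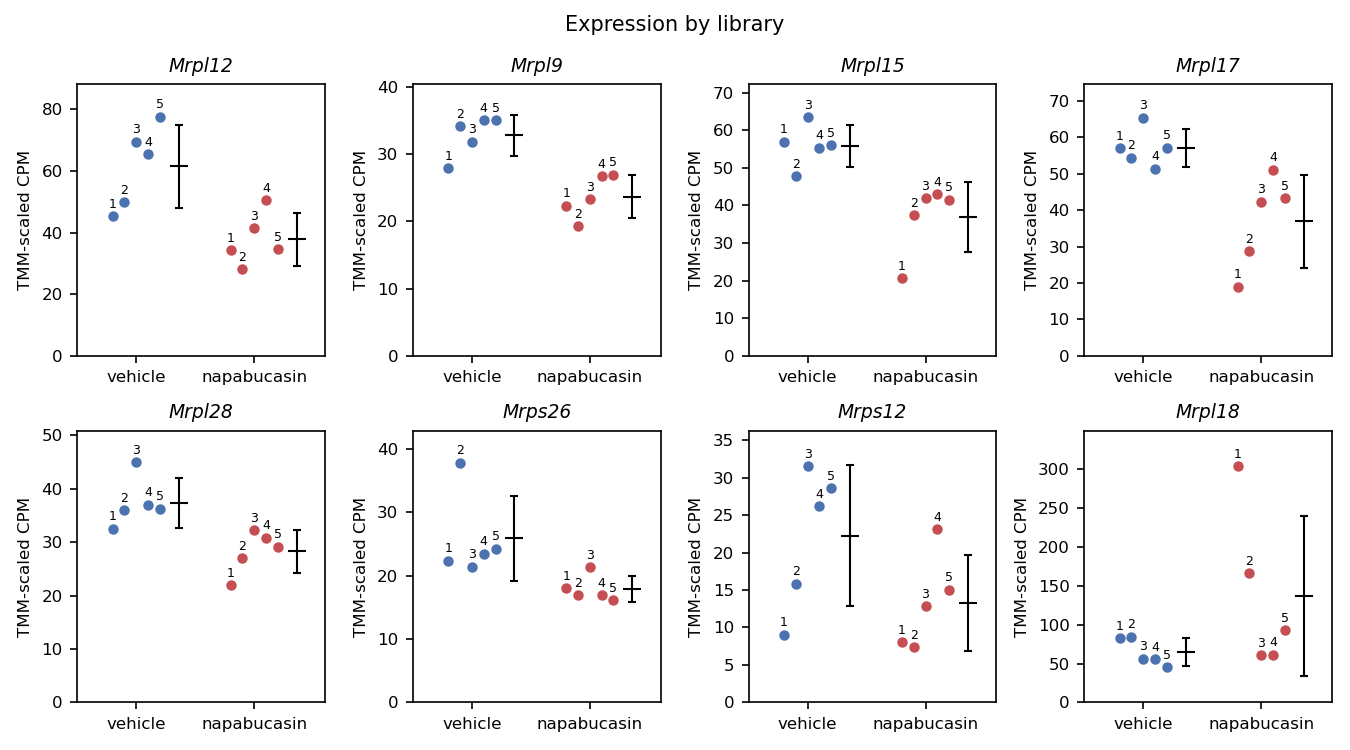
TMM-scaled CPM of 8 members in each library, with replicate numbers beside the points, vehicle in blue, napabucasin in red, and the mean and SD (n = 5 per group) in black. Mrpl9, Mrpl15, Mrpl17, Mrpl28 and Mrps26 show groups that do not overlap, and Mrpl18 is highest in napabucasin replicates 1 and 2.

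Mrpl18, whose protein sits in the central protuberance of the large subunit, was the only member higher at an unadjusted p under 0.05. It measured 82.6, 84.8, 56.4, 55.7 and 45.7 CPM with vehicle and 304, 167, 60.6, 61.6 and 93.0 CPM after napabucasin. The 2 highest values came from napabucasin replicates 1 and 2, the libraries with the lowest mean score over the members, while replicates 3 and 4 lay within the vehicle range. Its log2 fold change was 1.08 (SE 0.40, edgeR adjusted p = 0.278), 0.56 without napabucasin replicate 1, where it no longer passed an unadjusted 0.05, and 0.14 without replicates 1 and 2.

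Mrpl18 (chromosome 17, 12911349 to 12916345, minus strand) shares 10.1% of its exonic bases with Tcp1, a subunit of the cytosolic chaperonin encoded on the other strand. The strand setting of the counting is not given in the sources used here, and reads of the shared bases cannot be assigned. Tcp1 measured 148, 122, 123, 132 and 139 CPM with vehicle and 259, 187, 119, 124 and 169 CPM after napabucasin, also highest in napabucasin replicates 1 and 2. Its log2 fold change was 0.37 (SE 0.22, edgeR adjusted p = 0.421). Whether shared reads move the 2 genes together was not tested. Tcp1 was chosen after its values were seen.

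Mrpl18 also set the balance of the subunits in 1 library. The summed Mrpl CPM was 2.10 to 2.16 times the summed Mrps CPM in vehicle libraries and 2.06 to 2.12 times in napabucasin replicates 2 to 5, but 2.46 times in napabucasin replicate 1. Without Mrpl18 the ratio was 1.99 to 2.08 in vehicle libraries. It was then below every vehicle value in napabucasin replicates 1, 2 and 5 (1.90, 1.87 and 1.95) and inside the vehicle range in replicates 3 and 4 (2.01 and 2.04). This difference was not tested. The mean scores of the 2 subunits, with Mrpl18 included, lay close to each other in each library, as the plot of scores by library shows.

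Other bacterial-type proteins of the large subunit were named by rule. Mrpl11, at the base of the stalk, measured 27.9 ± 3.79 CPM with vehicle and 20.9 ± 6.61 CPM after napabucasin, and Mrpl14, at the subunit interface, 58.4 ± 17.3 and 47.2 ± 12.9 CPM (SD, n = 5 each). Mrpl3 measured 18.4 ± 3.35 and 17.4 ± 2.86 CPM, and Mrpl47 13.5 ± 3.20 and 10.1 ± 3.22 CPM. For each of these 4 the difference was within 2 SD of the vehicle group and the edgeR adjusted p was above 0.38.

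Mrpl24 measured 50.6 ± 9.12 and 53.1 ± 5.42 CPM, Mrpl33 24 ± 6.11 and 24.6 ± 2.41 CPM, and Mrpl32, a protein matured by the m-AAA protease of the inner membrane, 24.1 ± 2.54 and 24.4 ± 5.86 CPM. These 3 and Mrpl18 were the only Mrpl genes with a log2 fold change above 0, and with Mrpl18 set aside the highest was 0.070. The direction of Mrpl24, Mrpl33 and Mrpl32 was not stable, since each had a value below 0 under some alternative. By FPKM, the deposited value scaled for gene length and depth, Mrpl18 (71.3) and Mrpl14 (55.2) had the highest mean levels among tested Mrpl genes, and Mrpl19 (1.72) and Mrpl47 (2.65) the lowest.

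Of the large subunit proteins found only in mitochondria, 19 of 20 tested genes lay below 0, with a median log2 fold change of -0.19. This count takes in Mrps30 and Mrps18a, which structures place in the large subunit despite their symbols. Mrpl44, related to ribonuclease III, measured 20.1, 17.7, 23.6, 19.5 and 23.7 CPM with vehicle and 8.47, 9.83, 14.9, 20.7 and 16.4 CPM after napabucasin. Napabucasin replicates 1 and 2 were lowest and replicate 4 lay inside the vehicle range. The change on the log2 scale was -0.57 (SE 0.23, edgeR adjusted p = 0.299), and -0.27 without those 2 libraries.

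Mrpl43 measured 23.8, 35.4, 39.9, 42.5 and 39.4 CPM with vehicle and 17.3, 25.9, 27.1, 33.2 and 28.9 CPM after napabucasin, with replicate 1 lowest in each group. On the log2 scale it was -0.45 (SE 0.20, edgeR adjusted p = 0.321). Mrpl49 measured 38.7, 32.5, 26.3, 28.3 and 26.5 CPM with vehicle and 20.9, 24.8, 28.0, 21.9 and 22.9 CPM after napabucasin, where only napabucasin replicate 3 exceeded any vehicle value. For it the log2 fold change was -0.36 (SE 0.16, edgeR adjusted p = 0.321). Both were outside the rule for named genes and were chosen after their p-values were seen.

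Mrpl45, which holds the ribosome at the inner membrane, measured 23.4 ± 2.75 CPM with vehicle and 20.7 ± 3.77 CPM after napabucasin. Mrpl58, a peptidyl-tRNA hydrolase that rescues stalled ribosomes, measured 32.6 ± 3.25 and 28.1 ± 6.25 CPM. Mrps18a measured 18.5 ± 3.36 and 14.3 ± 3.77 CPM and Mrps30 18.5 ± 3.24 and 18.8 ± 3.56 CPM. None had an edgeR adjusted p below 0.41, and Mrps30 was the 1 of 20 with a log2 fold change above 0, at 0.024.

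Mrpl53 was the 1 member not tested, with 0 counts in all 10 libraries. The annotation (GENCODE vM21, GRCm38) puts it on chromosome 6, 83109040 to 83109939, plus strand, and 88.0% of its exonic bases also lie in exons of Gm42688 on the same strand, which measured 0.497 to 2.65 CPM. How reads in shared exons were counted is not given in the sources used here. A 0 here is no measure of the gene's expression.

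Of the small subunit proteins with a bacterial counterpart, 12 of 16 genes lay below 0 (median log2 fold change -0.091), and of those found only in mitochondria 10 of 10 did, with a median of -0.31. The difference between the 2 classes was not tested. Mrps26, found only in mitochondria (chromosome 2, 130563742 to 130568695, plus strand), measured 22.4, 37.9, 21.4, 23.5 and 24.3 CPM with vehicle and 18.1, 17.0, 21.3, 17.0 and 16.2 CPM after napabucasin. The groups did not overlap, though vehicle replicate 3 at 21.4 CPM and napabucasin replicate 3 at 21.3 CPM nearly met, and vehicle replicate 2 stood far above the rest. The log2 fold change was -0.53 (SE 0.19, edgeR adjusted p = 0.256). It was -0.35 when vehicle replicate 2 was left out and -0.52 when napabucasin replicates 1 and 2 were.

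Mrps24, which lies at the entry of the mRNA channel, measured 36.6, 40.5, 45.6, 35.6 and 48.6 CPM with vehicle and 17.9, 25.9, 32.5, 40.4 and 31.8 CPM after napabucasin. Napabucasin replicate 4 lay inside the vehicle range and the other 4 below it. On the log2 scale the change was -0.48 (SE 0.21, edgeR adjusted p = 0.313). Mrps23 measured 10.2, 24.3, 23.8, 22.2 and 22.4 CPM with vehicle and 13.9, 13.5, 15.9, 17.3 and 11.2 CPM after napabucasin, so that vehicle replicate 1 was the lowest of all 10 libraries while the other 4 vehicle values lay above every napabucasin value. Its log2 fold change was -0.52 (SE 0.23, edgeR adjusted p = 0.316), and -0.71 without vehicle replicate 1.

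Mrps12, a protein of the decoding centre that bears on the accuracy of translation, had the lowest log2 fold change of all members, -0.74 (SE 0.36, edgeR adjusted p = 0.345). It measured 9.05, 15.9, 31.5, 26.2 and 28.6 CPM with vehicle and 8.03, 7.40, 12.8, 23.1 and 15.0 CPM after napabucasin. Vehicle replicate 1 was nearly as low as the lowest napabucasin libraries, and the spread within each group was wide. With the replicate number as a block it passed an unadjusted p of 0.05, as did Mrps18a, Mrps18b and Mrps34, and without the block these 4 did not.

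The bases before Mrps26 and Mrps12, and the whole stretch between the start sites of Mrpl43 and its neighbour, are shown with the letters CCGGAAG of ETS factors in capitals on either strand, also from RefSeq (GRCm38.p6). The first is the small subunit gene whose groups did not overlap, and the other 2 are divided from a gene on the other strand by short stretches.
Mrps26, chr2:130563607-130563756, plus strand: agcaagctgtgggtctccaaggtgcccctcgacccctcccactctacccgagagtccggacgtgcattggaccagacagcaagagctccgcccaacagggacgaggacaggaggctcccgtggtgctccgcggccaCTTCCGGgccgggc
Mrps12, chr7:28741822-28741971, minus strand: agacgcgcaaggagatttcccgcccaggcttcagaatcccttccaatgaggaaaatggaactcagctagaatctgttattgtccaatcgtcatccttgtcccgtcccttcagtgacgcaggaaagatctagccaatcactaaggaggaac
Mrpl43, chr19:45006443-45006557, minus strand: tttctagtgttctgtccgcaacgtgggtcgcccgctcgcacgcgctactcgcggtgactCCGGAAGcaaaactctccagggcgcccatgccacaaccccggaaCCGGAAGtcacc
In Mrps26 the letters lie 14 bases before the start and in Mrpl43 at 56 and 12 bases before it. The stretch printed for Mrps12 holds none of these letters, but its wider promoter window has ETS letters just after the start and YY1 letters farther upstream. That of Mrps26 also has NRF1 letters at its start site, beyond the printed bases.

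Mrps34, found only in mitochondria, measured 32.2 ± 8.56 CPM with vehicle and 22.0 ± 9.73 CPM after napabucasin, and Mrps18b 12.3 ± 4.00 and 8.57 ± 2.87 CPM. Mrps34 shares 77.8% of its exonic bases with Mapk8ip3 and Nme3, so its level is uncertain. Mrps18b shares 30.5% with Gm16279 on the other strand. Mrps18c, the third paralogue of bacterial protein S18 beside Mrps18a and Mrps18b, measured 14.4 ± 2.79 and 13.0 ± 3.77 CPM. Mrps22 measured 19.6 ± 6.0 and 17.9 ± 6.54 CPM, and Mrps5 46.9 ± 11.6 and 44.1 ± 6.05 CPM. Mrps7, at 73.3 ± 9.29 and 69.1 ± 8.22 CPM, had the highest vehicle mean by CPM of the tested members. Mrps25 measured 13.4 ± 2.77 and 13.0 ± 2.55 CPM, and 69.8% of its exonic bases lie in exons of Nr2c2 on the other strand.

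Mrps6 had the highest log2 fold change of the small subunit, 0.48 (SE 0.24, edgeR adjusted p = 0.354). It measured 6.75, 8.21, 7.45, 8.36 and 4.88 CPM with vehicle and 13.5, 6.37, 12.5, 9.07 and 8.54 CPM after napabucasin. Of the napabucasin values 4 lay above every vehicle value and replicate 2 inside the vehicle range. The value was 0.49 without napabucasin replicates 1 and 2, and 0.35 to 0.61 with 1 library left out. Mrps6 shares 19.9% of its exonic bases with Slc5a3 and Gm49711 on the same strand.

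Mrps15 and Mrps11 also lay above 0, at 32.5 ± 7.34 against 37.3 ± 6.22 CPM and at 13.6 ± 3.13 against 14.9 ± 3.51 CPM. Mrps21, with the highest FPKM of the Mrps genes (48.6), measured 36.3 ± 10.6 and 36.3 ± 4.52 CPM, and Mrps25 had the lowest FPKM (1.99). Mrps36, a subunit of the 2-oxoglutarate dehydrogenase complex and not of the ribosome in spite of its symbol, measured 11.8 ± 3.77 and 11.8 ± 1.75 CPM. The edgeR adjusted p was above 0.59 for each of these 4.

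Each library was left out in turn for the 12 members at an unadjusted p under 0.05. These were picked for small p in the same libraries, and the fits share most libraries. The same count was not made over all genes, so it cannot show which results rest on single animals. Mrpl9, Mrpl12, Mrpl15, Mrpl17 and Mrps26 stayed under 0.05 in all 10 fits. Mrpl18 did so in 9, Mrpl28 in 8, Mrpl44 in 6, Mrps24 in 5, Mrpl49 and Mrps23 in 3 and Mrpl43 in 2. Without napabucasin replicates 1 and 2 together, 3 of 48 Mrpl and 1 of 29 Mrps genes were lower at an unadjusted p under 0.05 (6.25% and 3.45%), against 2.32% of all genes. They were Mrpl9, Mrpl12, Mrpl15 and Mrps26, with log2 fold changes of -0.36, -0.55, -0.41 and -0.52, and none passed edgeR's adjusted threshold.

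**Figure D4:**
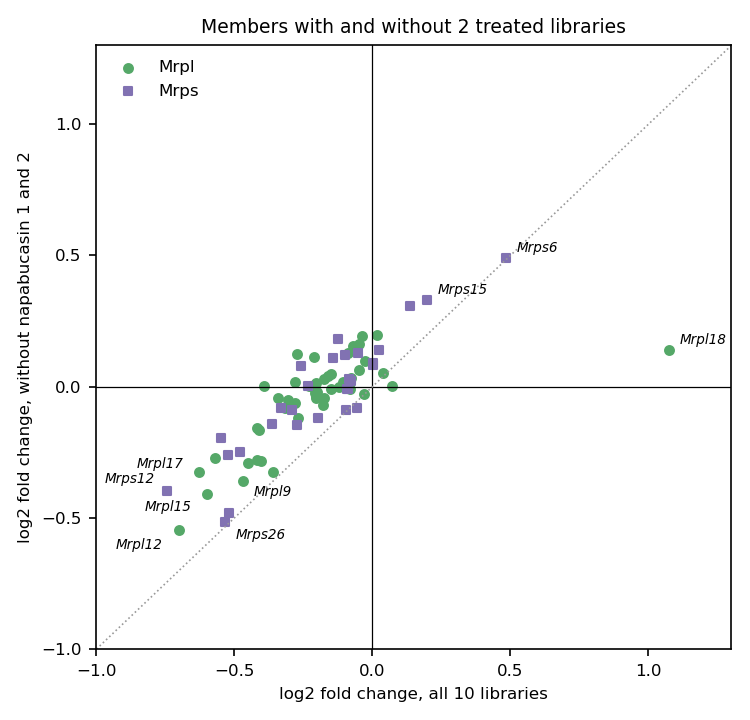
Log2 fold change of each tested member with all 10 libraries (horizontal axis) and without napabucasin replicates 1 and 2 (vertical axis), with circles for Mrpl, squares for Mrps and equality dotted. Most points lie above the dotted line, Mrpl12 and Mrps26 are the 2 lowest on the vertical axis, and Mrpl18 drops from 1.08 to 0.14.

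Mitochondrial ribosomal protein genes often begin beside another gene that is read the other way. Of the 78 members, 27 (34.6%) had a protein-coding gene on the other strand starting no more than 1000 bases upstream or less than 500 bases downstream of their own start, against 13.8% of 12791 tested protein-coding genes. In 25 of these cases both genes were tested, with Mrpl46 and Mrps11 counted from both sides. The partner's log2 fold change was below 0 in 12 of the 25, with a median of 0.051. The member's own value was below 0 in 23 of the 25, and the difference between members and partners was not tested.

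Mrps12 and Sars2, the mitochondrial seryl-tRNA synthetase, start 172 bases apart. Sars2 measured 10.8 ± 1.18 CPM with vehicle and 11.4 ± 2.09 CPM after napabucasin, giving 0.072 on the log2 scale beside -0.74 for Mrps12. Mrpl43 and Twnk, the helicase of mitochondrial DNA, start 116 bases apart in the count table, with log2 fold changes of -0.45 and -0.27. In the annotation (GENCODE vM21) Mrpl43 has other coordinates and shares 33.4% of its exonic bases with Twnk on the other strand. Reads of bases shared by the 2 genes cannot be assigned. Mrpl44 and Wdfy1 had -0.57 and 0.63, and Mrpl49 and Fau, a cytoplasmic ribosomal protein, -0.36 and -0.46. Mrpl46 and Mrps11, which are each other's partner and overlap at their starts by 412 bases, had -0.27 and 0.14.

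Promoter sequences, 250 bases before to 50 bases after the RefSeq start, were matched by symbol for 69 of 78 members. The letters GCGCANGCG of NRF1 occurred on either strand for 16 of the 69 (23.2%), against 14.4% of 10540 tested genes with a promoter in the table and 6.2% of all 32851 promoters. CCGGAAG of ETS factors occurred for 26 (37.7%, against 19.1% and 8.9%), and AAGATGGC of YY1 for 12 (17.4%, against 5.0% and 2.7%). At least 1 of the 3 was found for 44 members (63.8%, against 33.2% and 16%) and all 3 for 0. Of the members' promoters 3 held both ETS and YY1 letters, and in none did those letters overlap.

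Other letters were less frequent than in tested genes or about as frequent. GGGCGG of SP factors occurred for 49.3% of members (65.6% of tested genes), TATAAA for 7.2% (9.6%), the E-box CACGTG for 7.2% (11.4%) and GAANNTTC of the heat shock element for 7.2% (7.2%). Median GC content was 58.7% for members, 60.0% for tested genes and 52.7% for all promoters. Members with and without the NRF1 letters had median log2 fold changes of -0.21 (16 genes) and -0.17 (52 genes), with and without the ETS letters -0.21 (25) and -0.17 (43), and with and without the YY1 letters -0.13 (12) and -0.20 (56). These are descriptions of letters, not of binding.

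The transcripts of the factors themselves differed little. Nrf1 measured 11.7 ± 2.51 CPM with vehicle and 11.3 ± 1.76 CPM after napabucasin, and Yy1 67.4 ± 5.14 and 66.1 ± 7.15 CPM. The GABP subunits Gabpa, Gabpb1 and Gabpb2 had log2 fold changes of -0.16, 0.24 and -0.18. The coactivators Ppargc1a and Ppargc1b, which drive mitochondrial biogenesis, had 0.066 and -0.26. Of 10 such regulators 6 lay below 0, with a median of -0.042, and 0 were past an unadjusted p of 0.05 in either direction.

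The other proteins needed to make and run the mitochondrial ribosome were compared from fixed lists. The 5 measured subunits with other symbols had 3 log2 fold changes below 0. Dap3 (0.27), a GTP-binding protein of the small subunit, and Ptcd3 (0.24) lay above 0, and Chchd1 (-0.38) and Aurkaip1 (-0.22) below it. None of the 5 had an unadjusted p under 0.05.

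Translation factors lay below 0 for 11 of 16 tested, at a median of -0.26, and 1 (6.25%) was lower at an unadjusted p under 0.05, against 5.83% of all genes. That 1 was Lrpprc, which stabilises mitochondrial mRNAs, at 83.0 ± 13.8 CPM with vehicle and 62.3 ± 4.81 CPM after napabucasin (edgeR adjusted p = 0.285). Tufm, the elongation factor that brings tRNAs to the ribosome, measured 69.7 ± 21.4 and 46.3 ± 19.3 CPM, and Gfm1, the translocation factor, 50.2 ± 14.8 and 35.0 ± 11.9 CPM. The release factor gene Mtrf1 had a log2 fold change of -0.47.

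Assembly factors of the mitochondrial ribosome lay below 0 for 18 of 27, with a median of -0.14, and 4 (14.8%, against 5.83% of all genes) were lower at an unadjusted p under 0.05. Mrm2, a methyltransferase of the large ribosomal RNA, measured 6.97 ± 1.34 CPM with vehicle and 4.13 ± 0.776 CPM after napabucasin, with a log2 fold change of -0.75 (edgeR adjusted p = 0.228). The other 3 were the helicase gene Ddx28 (-0.52), the GTPase gene Mtg1 (-0.44) and Mpv17l2 (-0.49). Without napabucasin replicates 1 and 2 the median of this list was -0.17, with 24 of 27 (88.9%) below 0, against 53.6% of all genes. The number lower at an unadjusted p under 0.05 was then 1 (3.7%), against 2.32% of all genes.

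Among mitochondrial aminoacyl-tRNA synthetases and related enzymes, which charge the tRNAs, 11 of 20 lay below 0 (median -0.077). At an unadjusted p under 0.05, 3 (15%) were lower, against 5.83% of all genes. The 3 were Mars2 (-0.69), Gatc (-0.68) and Pars2 (-0.83), while Cars2 had 0.51. Without napabucasin replicates 1 and 2 the count was 0, against 2.32% of all genes. The median of this list was then -0.14, with 16 of 20 (80%) below 0, against 53.6% of all genes. Among 16 genes of mitochondrial transcription and RNA processing 9 lay below 0 (median -0.070). Trmt10c, part of the enzyme that cuts tRNAs out of mitochondrial transcripts, had -0.65 and the RNA-degrading Pnpt1 0.40, both at an unadjusted p under 0.05. Tfam, which packages mitochondrial DNA and starts its transcription, had -0.34 and Tfb2m -0.35.

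The proteins that the mitochondrial ribosome makes are encoded by 13 mitochondrial genes, 10 of which lay above 0, with a median log2 fold change of 0.24. The highest named by rule was mt-Atp6, a subunit of ATP synthase, at 672 ± 480 CPM with vehicle and 1337 ± 712 CPM after napabucasin (log2 fold change 0.99, SE 0.48, edgeR adjusted p = 0.343). The respiratory complex I genes mt-Nd4, mt-Nd3 and mt-Nd2 had 0.45, 0.44 and 0.43. The value farthest from 0 went the other way: mt-Nd4l, another complex I gene, had -1.36 (SE 1.13, edgeR adjusted p = 0.555), with 6.37 to 545 CPM in vehicle and 12.9 to 96.9 CPM in napabucasin libraries, and was chosen after its value was seen. mt-Atp8 and mt-Co3 also lay below 0, at -0.62 and -0.24, and none of the 13 had an unadjusted p under 0.05. Without napabucasin replicates 1 and 2 the median was -0.069, with 10 of 13 below 0.

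For scale, 70 of 79 cytoplasmic ribosomal protein genes lay below 0 (median log2 fold change -0.25), and 75 of 77 nuclear genes for respiratory chain subunits did, with a median of -0.37. Without napabucasin replicates 1 and 2 these medians were -0.036 and -0.12. Differences between the sets were not tested.

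**Figure D5:**
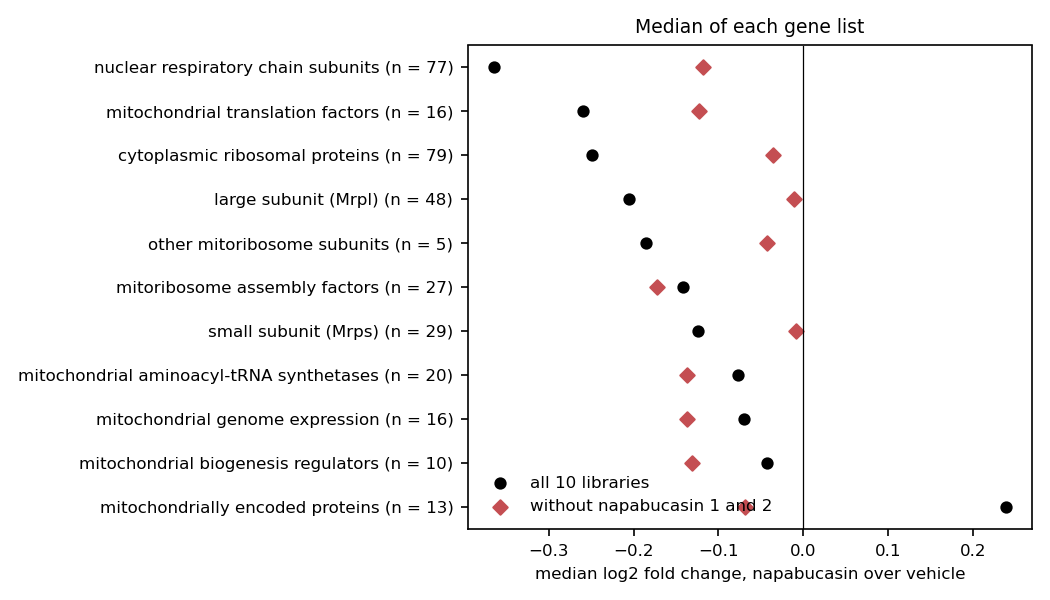
Median log2 fold change, napabucasin over vehicle, of each gene list with all 10 libraries (black circles) and without napabucasin replicates 1 and 2 (red diamonds), with the number of tested genes in brackets. Without those libraries both subunits of the mitochondrial ribosome come within 0.011 of 0, and the assembly factors stay at -0.17. The synthetases (-0.14), mitochondrial genome expression (-0.14) and biogenesis regulators (-0.13) are then farther below 0 than with all 10 libraries. Translation factors and nuclear respiratory chain subunits are at -0.12. Mitochondrially encoded proteins are at -0.069, other mitoribosome subunits at -0.042 and cytoplasmic ribosomal proteins at -0.036.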

How the data were processed

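Poly(A) RNA of whole liver was sequenced, per the labels' protocols. The authors deposited unnormalized counts of whole reads per gene; the submitters' processing notes name CASAVA, HISAT2 2.0.5, featureCounts 1.5.0-p3 and the build GRCm38 (mm10), but no strand setting. The deposited FPKM values come from the same counts, scaled in each library by a median-of-ratios size factor, as checked on the values. Library totals were 14124484 to 17759967 counts.

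The fit on counts used edgeR 4.0.16 in R 4.3.3 (filterByExpr, TMM, robust quasi-likelihood F test, Benjamini-Hochberg adjustment over 14244 genes, threshold 0.05) and was tested on simulated data. CPM values use TMM library sizes, and log2 CPM a prior count of 2. Standard errors are those implied by the F statistic. The labels call replicates biological, and each p reflects only the spread between these libraries. Alternatives were other scalings and filters, DESeq2 1.42.0, limma 3.58.1 (voom, and log2(FPKM + 1) or log2(FPKM + 0.1) at a mean FPKM of at least 0.5), covariates, overlap-free members and libraries left out.

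Libraries with equal replicate numbers deviated together from their group means, with correlations of 0.154, 0.227, 0.208, 0.270 and 0.278. All exceeded 0.1, so equal numbers were taken as pairs in the replicate block and in the sign-flip test. The main edgeR fit and the permutation test were unpaired. Only for replicates 3 and 4 was the equal number the best match from both sides. Vehicle replicates 1 and 2 correlated best with napabucasin replicates 5 and 1. The pairing rests on the data, since the labels do not say what a number marks.

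The members and lists were chosen with earlier results of these data known. Named in each subunit were the 6 members of smallest p, the 3 of highest and 3 of lowest log2 fold change, the 2 of highest and 2 of lowest FPKM, and 16 members chosen for their role; other lists gave up to 4 genes by smallest p, and 7 genes were named whatever their p. Genes of other biotypes with such symbols, 5 in all, took 0.072% of the members' counts. Of the 78 members, 45 share no exonic base with another gene in the annotation and 18 share over 10%.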

Additional observations from a re-analysis of the deposited data

Results flagged for a closer look

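In a set of 5 values, a library was marked when its gap to the nearest other value exceeded 0.71 of the whole range. Of 82 sets of values, 6 met this, and chance marks about 1 set in 20. Mrpl15 was lowest in napabucasin replicate 1, at 20.6 CPM against 37.4 CPM in the next library. Mrps36 was also lowest in napabucasin replicate 1, at 8.72 CPM against 11.98 CPM. Mrps23 was lowest of the vehicle libraries in replicate 1, at 10.2 CPM against 22.2 CPM. Mrps26 was highest of the vehicle libraries in replicate 2, at 37.9 CPM against 24.3 CPM. The ratio of summed Mrpl to Mrps CPM was highest in napabucasin replicate 1, at 2.46 against 2.12. The share of counts in mitochondrially encoded genes was highest of the vehicle group in replicate 1, at 19.0% against 8.78%.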

How the results depend on the processing

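Both subunit medians stayed below 0 under all 29 alternatives, and 0 Mrps genes passed the adjusted threshold under any. Over the alternatives other than 1 library left out, the median of all genes ran from -0.028 to 0.069. That range spans unlike settings, so it is no measure for the subunit medians of 1 fit. Without napabucasin replicates 1 and 2 the subunit medians were -0.010 and -0.0082, and 53.6% of all genes lay below 0. With 1 library left out, the medians ran from -0.27 to -0.10 for Mrpl and from -0.21 to -0.049 for Mrps, both nearest 0 without napabucasin replicate 1. The Mrpl median was -0.050 with the rRNA share as a covariate, -0.045 without the 3 libraries of highest rRNA share and -0.010 without napabucasin replicates 1 and 2. With library size as the only scaling the median of all genes was 0.069 and those of Mrpl and Mrps were -0.12 and -0.034.

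The number of Mrpl genes lower at an unadjusted p under 0.05, 8 in the fit as reported, was 3 with library size only, 4 with the rRNA covariate, 2 without the 3 libraries, 3 without the pair, 2 of 23 among members that overlap no gene, and 4 to 10 with 1 library left out. For Mrps, 3 as reported, it was 0 with library size only, 7 with voom and 7 with the replicate block. It was 1 with the mitochondrial covariate, 0 without the 3 libraries, 1 without the pair and 1 of 14 among members that overlap no gene. With 1 library left out it was 1 to 5. The count of all genes lower at that threshold moved as well, so these counts do not reflect the members alone. That count, 830 as reported, was 340 without the pair (2.32%) and 1255 with the replicate block (8.81%). It was 457 to 1196 with 1 library left out, and at most 1564 under the other alternatives. The all-gene count of each of those other settings is not given here, so their member counts cannot be set against it. Genes called in all at an adjusted p under 0.05, 0 as reported by edgeR (830 lower and 1331 higher unadjusted), were 1 with library size only, 19 without a filter, 242 with DESeq2, 156 with voom, which called 1 Mrpl gene, 1 with limma on log2(FPKM + 0.1), and 0 to 18 with 1 library left out, the 18 without vehicle replicate 1. The cause was not tested. The replicate block changed no adjusted call. With 5 animals a group, the median 95% interval of a member reached 0.44 log2 units to either side, wider than either subunit's median.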
